A study of Mus musculus with 16 samples.

Results

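The arrays carried 15 probes for 10 genes of the LIF and Stat3 pathway, out of 55681 probes that were not controls, of which 28026 named 21154 genes. The 10 genes were *Lifr*, *Il6st*, *Jak1*, *Stat3*, *Socs3*, *Socs2*, *Pim1*, *Pim3*, *Gbx2* and *Junb*, and every probe annotated to a RefSeq transcript of one of them was taken. Testing was limited to probes whose signal stood well above the local background throughout at least 1 group, 27126 in all, which represented 13917 named genes. All 15 probes of the 10 genes passed this filter. They were well above background on all 16 arrays, except the *Lifr* probe A_55_P2159264, which was so on 13, and no spot of theirs was saturated.

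Leukaemia inhibitory factor (LIF) is the cytokine added to mouse embryonic stem cells (mESCs) to hold them in self-renewal. It binds its receptor Lifr, which pairs with gp130, the shared signalling chain of the interleukin-6 family encoded by *Il6st*. The kinase Jak1, bound to these chains, phosphorylates Stat3, and Stat3 then enters the nucleus and activates genes that include its own inhibitor *Socs3*, the kinases *Pim1* and *Pim3*, the AP-1 factor *Junb* and the homeobox gene *Gbx2*.

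Array expression was measured in 3 male mESC lines that all derive from J1, each in serum medium and after 2 weeks in 2i medium. J1 cells are wild type (4 arrays in serum, J1-serum, and 3 in 2i, J1-2i). TKO cells lack functional *Dnmt1*, *Dnmt3a* and *Dnmt3b*, the DNA methyltransferases (2 arrays in serum and 3 in 2i). 3B3l cells, which the labels call 3B3-3l, lack the endogenous *Dnmt3a* and *Dnmt3b* and constitutively express exogenous *Dnmt3b* and its cofactor *Dnmt3l* (2 arrays in each medium). LIF was added to both media, at 500 U/ml in serum and at 1000 U/ml in 2i, and any LIF from feeder cells was not measured. The 2i medium had a defined serum-free base with 1 µM of the MEK inhibitor PD0325901 and 3 µM of the GSK3 inhibitor CHIR99021, so the inhibitors, the base medium and the LIF dose change together and their parts in a response to 2i cannot be told apart. In serum, J1 cells were grown on inactivated SNLP feeder cells, and TKO and 3B3l cells without feeders. In any serum difference of TKO or 3B3l from J1, line and feeders therefore cannot be told apart. The study describes these feeders for serum cultures alone and gelatin-coated plastic as the substrate of its cells in 2i, so in J1 the loss of feeders goes with the change of medium, and its part in the J1 response and in each difference of response from J1 cannot be told apart. The labels do not say that replicates came from separate cultures, so the p-values measure the spread between these samples, which may be technical.

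The 75th percentile of an array's signal ranged from 1018.8 to 1797.2, with 39.7% to 49.0% of its spots well above background, and the number of arrays, 2 to 4 per group, limits the precision. *Dnmt1* and *Dnmt3a* followed the labels: *Dnmt1* averaged 1.81 ± 0.14 (SD, n = 4) in J1-serum and -1.67 ± 0.04 (SD, n = 2) in TKO-serum, as log2 relative to that percentile, and no TKO or 3B3l array had *Dnmt3a* well above background. *Dnmt1* and *Dnmt3b* were still well above background on all TKO arrays, with *Dnmt3b* at -0.34 in TKO-serum and 2.96 in J1-serum. *Dnmt3l* in 3B3l averaged 5.85 in serum, where spots were saturated, and 4.38 in 2i, beside 0.74 in J1-2i. All 11 listed ES cell markers were above background in every group. The arrays lay on 3 slides, with all 3B3l arrays on slide 3 and J1-serum replicate 1 as the sole other array there. Slide 3 alone was scanned on day 2. The 3B3l line is therefore tied to slide and scan day, and only that J1-serum array links it to J1 within a slide. J1-serum had the highest sums for markers of other cells. The summed signal of the fibroblast markers tested (14 of 22 listed, in multiples of the 75th percentile) was 53.3 to 65.5 in J1-serum, 40.0 to 40.9 in 3B3l-serum, 14.1 to 14.6 in TKO-serum and 2.9 to 4.7 in the 2i groups. Against J1-serum, 9 of these markers were lower in 3B3l-serum, 1 was higher and 4 did not pass. *Tagln*, the brightest of them in both groups, averaged 4.39 in 3B3l-serum and 3.81 in J1-serum. *Lum*, *Postn*, *Fbn1*, *Lox*, *Fap*, *Col5a2*, *Col6a2* and *Col6a3* did not pass the filter on signal. *Dcn*, which did, was well above background on J1 arrays only. The summed signal of 10 primitive endoderm markers was 34.2 to 42.4 in J1-serum, 3.8 to 4.8 in the other serum groups and 0.7 to 1.6 in 2i. In bulk RNA, fewer cells of a type and less RNA per cell cannot be told apart.

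A probe of *Stat3* and the promoter of *Socs3* are shown. The *Stat3* probe was printed 10 times per array, so each *Stat3* value is a mean over up to 10 spots, and its 60 bases are the stretch that was measured. *Socs3* is shown because it is the best-known direct Stat3 target among the 10 genes. Stat proteins bind palindromes of the form TTCNNNGAA, which reads the same on both strands. A window of 250 bases before to 50 bases after the transcription start was available from RefSeq (GRCm38.p6) for 9 of the 10 genes, as 11 promoters. The motif was present in 1 of these, that of *Socs3* (chr11:117969317-117969616, minus strand), with its first base 154 bases before the start, and in 8.30% of 32851 promoters of the same length. The match is a description of these letters, not of binding. In the *Stat3* probe no letters are marked, and in the *Socs3* promoter the capitals mark the motif.
Stat3 probe A_51_P201480: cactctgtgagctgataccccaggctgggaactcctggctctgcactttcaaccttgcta
Socs3 promoter: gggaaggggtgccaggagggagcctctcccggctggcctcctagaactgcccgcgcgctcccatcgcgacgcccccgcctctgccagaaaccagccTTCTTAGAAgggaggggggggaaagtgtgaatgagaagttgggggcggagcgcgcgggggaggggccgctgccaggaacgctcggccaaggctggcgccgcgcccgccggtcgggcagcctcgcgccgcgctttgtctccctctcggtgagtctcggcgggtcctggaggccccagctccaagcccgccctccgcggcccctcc

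All values below are log2 signals minus that of the array's 75th percentile (scaled log2 signals), so that 0 is the level of that percentile and a difference of 1 is 2-fold. A gene with several probes is given by the brightest, and passing means a limma p-value, Benjamini-Hochberg adjusted over all tested probes, of at most 0.05. Values for single arrays are given in the order of the replicate numbers.

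**Figure D1:**
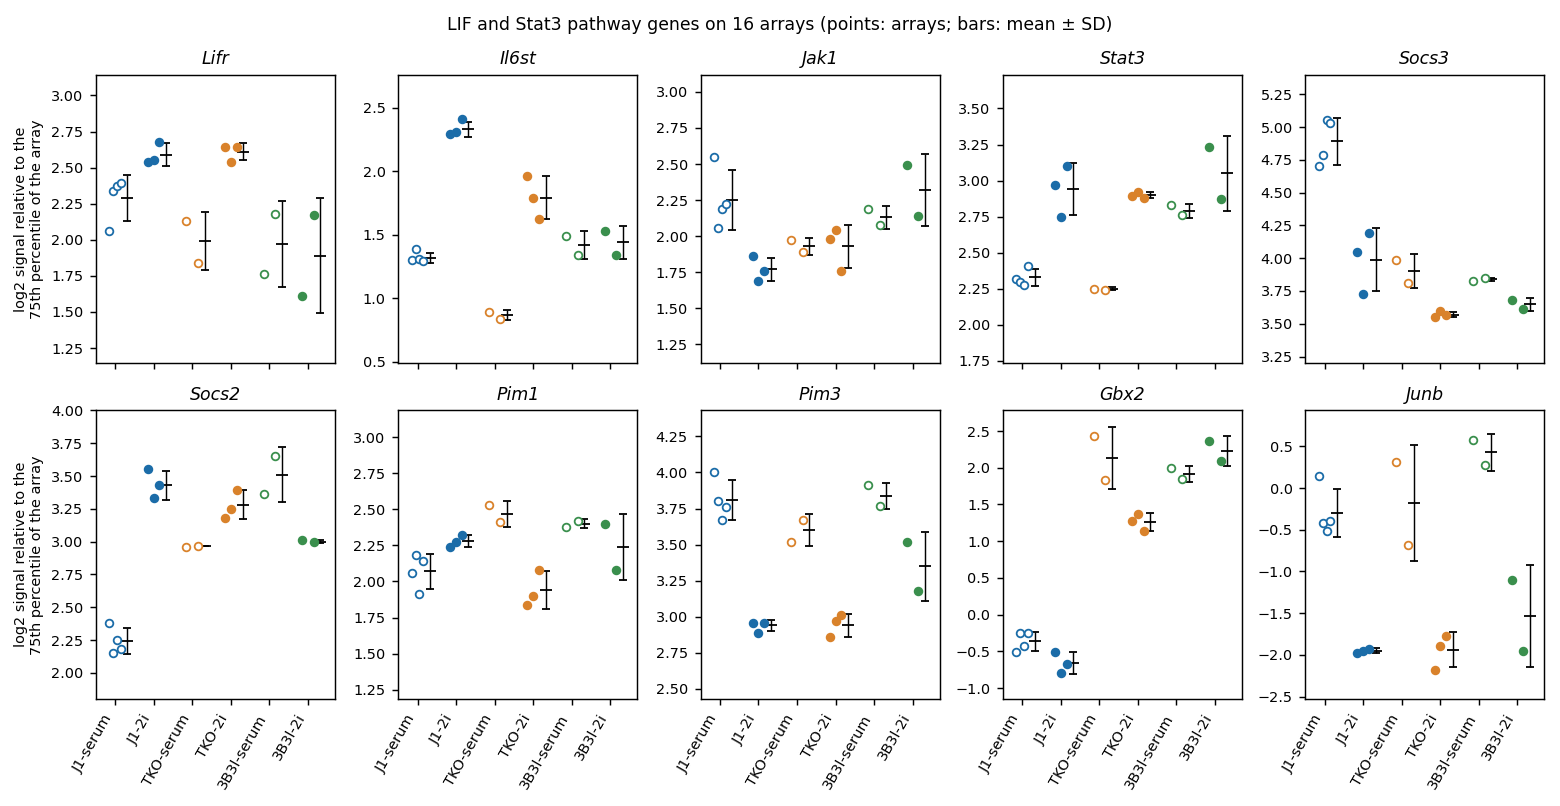
Scaled log2 signal of the 10 genes (vertical axis, log2 over the array's 75th percentile) on each array of the 6 groups (horizontal axis); open points are serum, filled points 2i, and bars give mean ± SD of the group. *Il6st* rose from 1.32 to 2.33 in J1 and stayed near 1.4 in 3B3l, *Socs3* was highest in J1-serum at 4.89, *Gbx2* was lowest in J1, and *Junb* was lower in 2i in all 3 lines.

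To ask how the pathway responds to 2i in wild-type cells, J1-2i was compared with J1-serum. *Il6st*, *Stat3* and *Socs2* rose, *Jak1*, *Socs3*, *Pim3* and *Junb* fell, and *Lifr*, *Pim1* and *Gbx2* did not pass. These 7 of 10 genes stand beside 55.0% of all tested genes that passed in either direction. At least 2-fold changes were seen for *Il6st*, *Socs2* and *Junb*, 3 of 10 genes against 22.6% of all tested genes. The fibroblast and primitive endoderm markers fell together with these changes, by a median of 3.29 and 4.80 on the log2 scale (all 14 and all 10 tested markers passed), and their part in them was not tested.

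In TKO cells, *Lifr*, *Il6st* and *Stat3* rose and *Pim1*, *Pim3*, *Gbx2* and *Junb* fell. That is 7 of 10 genes, beside 38.7% of all tested genes, and *Junb* alone passed with at least 2-fold (15.8% of all tested genes did). In 3B3l cells no gene of the 10 rose (15.9% of all tested genes did), and *Socs2*, *Pim3* and *Junb* fell, 3 of 10 beside 31.2% of all tested genes. *Junb* was again the sole gene at 2-fold or more (13.5% of all tested genes). The median log2 response of the 10 genes was -0.05 in J1, -0.16 in TKO and -0.12 in 3B3l, beside 0.05, 0.07 and 0.00 over all tested genes. The tested fibroblast markers had median log2 changes of -0.97 in TKO and -1.54 in 3B3l, and the primitive endoderm markers -1.77 and -1.12. The part of these markers in the TKO and 3B3l responses was not tested.

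**Figure D2:**
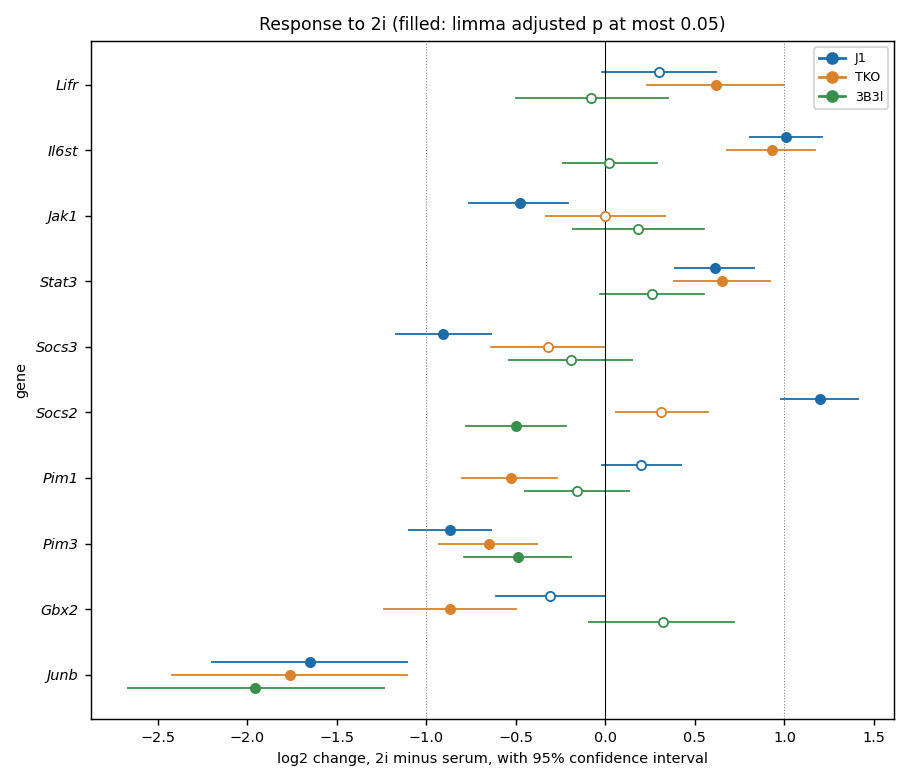
Log2 change from serum to 2i (horizontal axis) for each of the 10 genes (vertical axis) in J1, TKO and 3B3l cells; lines are 95% confidence intervals, filled points had an adjusted p of 0.05 or less, with dotted lines at 2-fold. *Junb* fell in all 3 lines by 1.65 to 1.96, and *Socs2* was spread from 1.20 in J1 to -0.50 in 3B3l.

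The receptor chains came first. *Il6st*, which encodes gp130, read 1.30, 1.39, 1.31 and 1.29 on the J1-serum arrays and 2.29, 2.31 and 2.41 on the J1-2i arrays. The groups did not overlap, and the rise of 1.01 ± 0.09 (SE), a 2.01-fold change, passed with an adjusted p of 1.5e-06 in limma. In TKO cells it read 0.89 and 0.84 in serum and 1.96, 1.79 and 1.62 in 2i. This rise of 0.93 ± 0.11 (SE, adjusted p = 3.1e-05) also left the groups apart. In 3B3l cells, it read 1.49 and 1.34 in serum and 1.53 and 1.34 in 2i, with a difference of 0.02 whose 95% interval ran from -0.24 to 0.29. The response of *Il6st* in 3B3l was therefore 0.99 lower than in J1 (interval -1.32 to -0.66, adjusted p = 4.0e-04), whereas that in TKO differed from J1 by -0.08 (interval -0.40 to 0.23). Between lines, *Il6st* was lower than in J1 in TKO-serum (-0.46 ± 0.11, SE, adjusted p = 0.0039), in TKO-2i (-0.54 ± 0.10, adjusted p = 0.0018) and in 3B3l-2i (-0.90 ± 0.11, adjusted p = 5.9e-05). Ordered by level, the groups ran from J1-2i over TKO-2i, 3B3l-2i, 3B3l-serum and J1-serum to TKO-serum, and only 3B3l-2i with 3B3l-serum and 3B3l-serum with J1-serum were neighbours that did not differ beyond their spread.

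For *Lifr*, the LIF-binding chain, the probes disagreed. The brightest, A_55_P2159259, read 2.06, 2.34, 2.37 and 2.39 in J1-serum and 2.54, 2.55 and 2.68 in J1-2i, a difference of 0.30 that did not pass (adjusted p = 0.12). In TKO cells it read 2.13 and 1.84 in serum and 2.64, 2.54 and 2.64 in 2i, and the rise of 0.62 ± 0.18 (SE, adjusted p = 0.017) was no longer called without TKO-serum replicate 2 (0.47). In 3B3l it read 1.76 and 2.18 in serum and 1.61 and 2.17 in 2i, and these values overlapped. The difference of 3B3l-serum from J1-serum, -0.32, did not pass but did with quantile normalization (-0.49). By this probe *Lifr* was lower in 3B3l-2i than in J1-2i (-0.70 ± 0.18, adjusted p = 0.0080), a call lost without 3B3l-2i replicate 1 (-0.42) and with the slide as a block (-0.39), and the other probes gave -0.15 and 0.28, which did not pass. None of the neighbours in the order of the group means differed.

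Probe A_55_P2159264, annotated to another RefSeq transcript of *Lifr*, went the other way. It read -1.17, -0.86, -0.76 and -0.73 in J1-serum and -2.20, -2.45 and -2.04 in J1-2i, a fall of 1.35 on the log2 scale, or 2.55-fold (adjusted p = 1.2e-04). It also fell by 1.28 in TKO (adjusted p = 0.0012), and in 3B3l the change was 0.23 (adjusted p = 0.65). It was well above background on all J1 and TKO-serum arrays, on 2 of 3 TKO-2i arrays and on 1 of 2 arrays in each 3B3l medium, so the 3B3l values lie near background. This probe was already low in 3B3l-serum, at -2.29 and -2.07, which was 1.30 below J1-serum (adjusted p = 5.1e-04). The third probe, A_51_P113182, annotated to the same transcript as the brightest, rose by 0.96 in J1 (adjusted p = 9.5e-04), while its changes in TKO (0.02) and 3B3l (0.22) did not pass. The direction given for *Lifr* in 2i therefore depended on the probe.

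**Figure D3:**
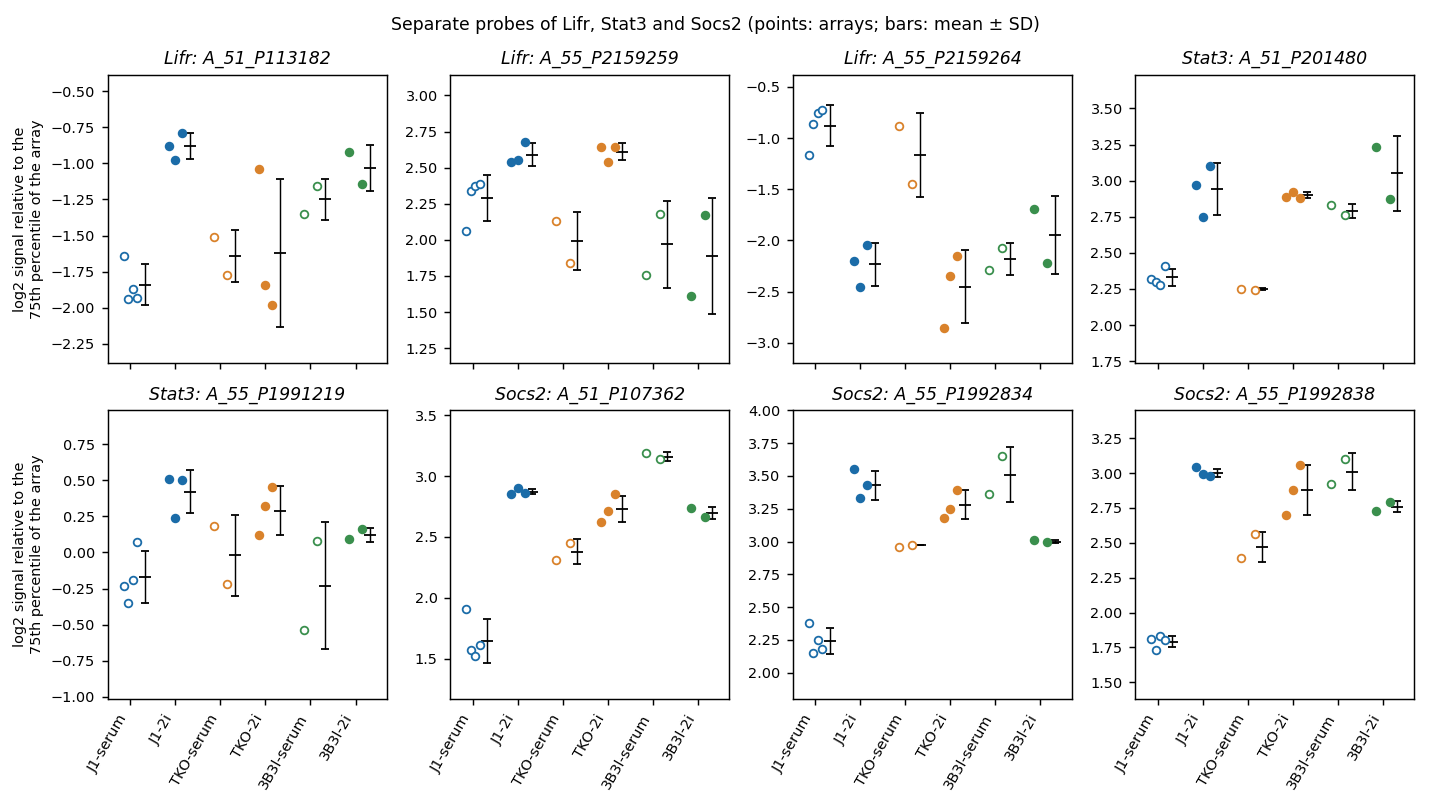
Scaled log2 signal (vertical axis, log2 over the array's 75th percentile) of each probe of *Lifr*, *Stat3* and *Socs2* on the arrays of the 6 groups (horizontal axis); open points are serum, filled points 2i, bars mean ± SD. The 3 *Socs2* probes share one pattern, with J1-serum lowest, while the *Lifr* probe A_55_P2159264 fell in J1 from -0.88 to -2.23 and A_51_P113182 rose from -1.84 to -0.88.

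*Jak1*, the kinase bound to these chains, read 2.55, 2.06, 2.19 and 2.22 in J1-serum and 1.86, 1.69 and 1.76 in J1-2i. The groups did not overlap, and the fall of 0.48 on the log2 scale (SE 0.13, adjusted p = 0.0069) missed the threshold among the arrays of slide 1 alone (-0.39, adjusted p = 0.051) and with scaling to the array median (-0.32). In TKO the change was 0.00 (interval -0.33 to 0.33), and in 3B3l it was 0.18 (interval -0.18 to 0.55). The response in 3B3l was 0.67 above that in J1 (adjusted p = 0.032), which was lost without either 3B3l-serum array (0.72 and 0.61), 3B3l-2i replicate 1 (0.49) or J1-2i replicate 2 or 3 (0.63 and 0.67). Compared with J1-2i, *Jak1* was higher in 3B3l-2i by 0.55 (adjusted p = 0.013), but by 0.16 with the slide as a block and by 0.37 without 3B3l-2i replicate 1, neither of which passed. No neighbours in the order of its group means differed.

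*Stat3*, the transcription factor of the pathway, read 2.32, 2.30, 2.28 and 2.41 in J1-serum and 2.97, 2.75 and 3.10 in J1-2i. All 2i values lay above all serum values, and the rise was 0.61 ± 0.10 (SE), or 1.53-fold, with an adjusted p of 3.0e-04. In TKO, where it read 2.25 and 2.24 in serum and 2.89, 2.92 and 2.88 in 2i, the rise was 0.65 ± 0.12 (adjusted p = 0.0012). In 3B3l the serum arrays were already at 2.83 and 2.76, and 2i read 3.23 and 2.87, a change of 0.26 that did not pass (adjusted p = 0.21; without 3B3l-2i replicate 2 it was 0.44 and passed, and without 3B3l-2i replicate 1 it was 0.08). The responses of TKO and 3B3l differed from that of J1 by 0.04 (interval -0.31 to 0.39) and -0.35 (interval -0.72 to 0.02), the latter -0.53 and passing without 3B3l-2i replicate 1 and -0.17 without replicate 2. *Stat3* was higher in 3B3l-serum than in J1-serum by 0.46 (adjusted p = 0.0059). That difference was 0.24 with quantile normalization, 0.48 within slide 3 and 0.43 without 3B3l-serum replicate 1, none of which passed. The second probe, A_55_P1991219, gave -0.05 for it (adjusted p = 0.83), and the median over both probes 0.21 (adjusted p = 0.20). In 2i this probe rose by 0.59 in J1 (adjusted p = 0.0090), while its changes of 0.32 in TKO and 0.35 in 3B3l did not pass. In the order of the group means, 3B3l-serum over J1-serum was the only step between neighbours that passed.

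The Socs genes encode inhibitors that Stat signalling induces and that then dampen it. *Socs3* read 4.70, 4.79, 5.05 and 5.03 in J1-serum and 4.05, 3.73 and 4.19 in J1-2i. The fall of 0.91 on the log2 scale (SE 0.12), or 1.87-fold, passed with an adjusted p of 4.0e-05 and was 0.92 within slide 1. In TKO it read 3.99 and 3.81 in serum and 3.55, 3.60 and 3.57 in 2i, and in 3B3l 3.83 and 3.85 in serum and 3.68 and 3.61 in 2i. Neither change passed, at -0.32 (interval -0.64 to -0.01) and -0.19 (interval -0.54 to 0.15), although the values of the media did not overlap in either line. The response in TKO was 0.58 above that in J1 (adjusted p = 0.038) and that in 3B3l 0.71 above it (adjusted p = 0.018). The first of these calls was lost under 16 of the alternatives tried, the fold limit included, with differences from 0.45 to 0.61, and the second without 3B3l-serum replicate 1 (0.70) or 3B3l-2i replicate 1 (0.67), with scaling to the array median (0.68) and with normexp background correction (0.45).

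J1-serum therefore held the highest *Socs3*, and the step from it to J1-2i was the only one between neighbouring groups that passed. Against J1-serum, *Socs3* was 0.99 lower in TKO-serum (SE 0.14, adjusted p = 8.2e-05) and 1.05 lower in 3B3l-serum (SE 0.14, adjusted p = 4.2e-05). The first difference was -1.14 within slide 1, and the second -0.86 within slide 3, where J1-serum was replicate 1 alone. In 2i the difference from J1 was -0.41 in TKO (adjusted p = 0.035) and -0.34 in 3B3l (adjusted p = 0.077). The 3B3l difference was -0.47 and passing without J1-2i replicate 2, -0.59 and passing with quantile normalization, and -0.08 with the slide as a block. The TKO call in 2i was lost without any single array of either group but J1-2i replicate 2, with values of -0.31 to -0.43, and with array median scaling (-0.50), normexp background correction (-0.32), no filter on signal or the 2i groups fitted alone. The fibroblast and primitive endoderm marker sums were also highest in J1-serum, at 53.3 to 65.5 and 34.2 to 42.4, and their part in its *Socs3* level was not tested.

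*Socs2* had the widest range of responses among the 10 genes. It read 2.38, 2.15, 2.25 and 2.18 in J1-serum and 3.55, 3.33 and 3.43 in J1-2i, a rise of 1.20 ± 0.10 (SE), or 2.29-fold, with an adjusted p of 4.9e-07. In TKO it read 2.96 and 2.97 in serum and 3.18, 3.25 and 3.39 in 2i, a change of 0.31 that did not pass (adjusted p = 0.062) but did by both other probes (0.34 and 0.40) and with the slide as a block (0.35). In 3B3l it read 3.36 and 3.65 in serum and 3.01 and 3.00 in 2i. This fall of 0.50 on the log2 scale (SE 0.13, adjusted p = 0.012) was lost without 3B3l-serum replicate 2 (-0.36) or 3B3l-2i replicate 2 (-0.50), in a fit of the 3B3l arrays alone (-0.50) and with scaling to the array median (-0.37). The other probes gave -0.46 (A_51_P107362, adjusted p = 0.022) and -0.25 (A_55_P1992838, adjusted p = 0.18) in 3B3l. The response was lower than in J1 by 0.89 in TKO (interval -1.22 to -0.55, adjusted p = 9.8e-04) and by 1.70 in 3B3l (interval -2.05 to -1.35, adjusted p = 8.1e-06), and both calls held under every alternative tried with no fold limit. The other *Socs2* probes gave -0.87 and -0.81 for TKO and -1.68 and -1.46 for 3B3l.

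In serum, *Socs2* was higher than in J1 by 0.73 in TKO (SE 0.11, adjusted p = 2.0e-04) and by 1.27, or 2.41-fold, in 3B3l (SE 0.11, adjusted p = 1.6e-06). These differences were 0.75 within slide 1 and 1.13 within slide 3. In 2i the difference was -0.16 in TKO (adjusted p = 0.32) and -0.43 in 3B3l (adjusted p = 0.012), the latter lost without either 3B3l-2i array (-0.43 and -0.42). The other probes gave -0.17 (adjusted p = 0.29) and -0.24 (adjusted p = 0.10) for the 3B3l difference in 2i, and the median over probes -0.24, none of which passed. *Socs2* was lowest in J1-serum, where the fibroblast and primitive endoderm sums were highest, and the step from TKO-serum down to J1-serum was the only one between neighbouring groups that passed.

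*Junb*, a subunit of the AP-1 transcription factor, had the largest log2 change of the 10 genes in 2i in each of the 3 lines. It read 0.14, -0.42, -0.52 and -0.40 in J1-serum and -1.98, -1.95 and -1.93 in J1-2i, a fall of 1.65 (SE 0.25), or 3.15-fold, with an adjusted p of 1.3e-04. In TKO it read 0.31 and -0.68 in serum and -2.18, -1.89 and -1.77 in 2i, a fall of 1.76 (SE 0.30, adjusted p = 5.6e-04). In 3B3l it read 0.58 and 0.28 in serum and -1.10 and -1.95 in 2i, a fall of 1.96 (SE 0.33, adjusted p = 6.9e-04). The media did not overlap in any line, and these calls held under all alternatives tried. The responses of TKO and 3B3l differed from that of J1 by -0.11 (interval -0.96 to 0.75) and -0.30 (interval -1.21 to 0.60), intervals that still allow differences near 2-fold. Between lines no *Junb* difference passed, although that of 0.73 in 3B3l-serum over J1-serum (adjusted p = 0.054) did so without J1-serum replicate 1 (0.88), with the signal filter on all 16 arrays and in a fit of the serum groups alone, and was 0.29 within slide 3. In the order of its group means, J1-serum over 3B3l-2i was the only passing step, which set all serum groups above all 2i groups.

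*Pim3* and *Pim1* encode serine/threonine kinases that promote survival and self-renewal. *Pim3* read 4.0, 3.80, 3.67 and 3.76 in J1-serum and 2.96, 2.89 and 2.96 in J1-2i, and fell by 0.87 (SE 0.11), or 1.83-fold (adjusted p = 1.8e-05). In TKO it read 3.52 and 3.67 in serum and 2.86, 2.97 and 3.01 in 2i, a fall of 0.65 (SE 0.13, adjusted p = 0.0014). In 3B3l it read 3.91 and 3.77 in serum and 3.52 and 3.18 in 2i. This fall of 0.49 (SE 0.14, adjusted p = 0.020) was lost without 3B3l-serum replicate 1 (-0.42) or 3B3l-2i replicate 2 (-0.32), with normexp background correction (-0.20), array median scaling (-0.36) or no filter on signal, and in a fit of the 3B3l arrays alone. The difference of responses from J1 did not pass for either line, at 0.22 in TKO and 0.38 in 3B3l, the latter 0.55 and passing without 3B3l-2i replicate 2, 0.64 and passing with normexp background correction, and 0.21 without 3B3l-2i replicate 1. Compared with J1-2i, *Pim3* was higher in 3B3l-2i by 0.41 (adjusted p = 0.020), but by 0.16 with the slide as a block, 0.21 with quantile normalization and 0.24 without 3B3l-2i replicate 1, none of which passed. The step from 3B3l-2i to TKO-2i was the only one between neighbouring groups that passed.

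*Pim1* read 2.06, 2.18, 1.91 and 2.14 in J1-serum and 2.24, 2.27 and 2.32 in J1-2i, a difference of 0.20 that did not pass (adjusted p = 0.12) but was 0.37 and passed with array median scaling, and was 0.08 with quantile normalization. In TKO it fell from 2.53 and 2.41 in serum to 1.84, 1.90 and 2.08 in 2i, by 0.53 on the log2 scale (SE 0.12, adjusted p = 0.0042). The response in TKO was 0.74 lower than in J1 (interval -1.08 to -0.39, adjusted p = 0.0040), a call kept under every alternative with no fold limit. In 3B3l it read 2.38 and 2.42 in serum and 2.40 and 2.08 in 2i, values that overlapped, and the response differed from that of J1 by -0.36, which did not pass but did without 3B3l-2i replicate 1 (-0.52), and was -0.20 without replicate 2. *Pim1* was higher than in J1 in TKO-serum by 0.40 (adjusted p = 0.014) and in 3B3l-serum by 0.33 (adjusted p = 0.032), and lower in TKO-2i by 0.34 (adjusted p = 0.040). The first call was lost without TKO-serum replicate 1 (0.34), and the other calls under most alternatives, quantile normalization among them for 3B3l-serum (0.13). No step between neighbouring groups passed.

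*Gbx2*, a homeobox gene that Stat3 activates in mESCs, separated the lines more than the media. It read -0.51, -0.25, -0.43 and -0.25 in J1-serum and -0.51, -0.80 and -0.67 in J1-2i, a difference of -0.31 that did not pass (adjusted p = 0.098). In TKO it read 2.43 and 1.83 in serum and 1.27, 1.37 and 1.14 in 2i, a fall of 0.87 (SE 0.17, adjusted p = 0.0016), and without TKO-serum replicate 1 the change was -0.57 and still passed. In 3B3l it read 1.99 and 1.84 in serum and 2.37 and 2.09 in 2i, a difference of 0.32 that did not pass (adjusted p = 0.27). The difference of responses from J1 was -0.56 in TKO (adjusted p = 0.083; -0.69 and -0.68 and passing with quantile normalization and normexp background correction, -0.86 and passing without TKO-serum replicate 2, and -0.27 without TKO-serum replicate 1) and 0.62 in 3B3l (adjusted p = 0.070; passing in a fit of only the groups compared). Every TKO and 3B3l array lay above every J1 array.

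In serum, *Gbx2* was higher than in J1 by 2.49 ± 0.16 (SE) in TKO, or 5.60-fold (adjusted p = 1.7e-07), and by 2.27 ± 0.16 in 3B3l, or 4.82-fold (adjusted p = 2.8e-07). In 2i it was higher by 1.92 ± 0.15 in TKO, or 3.79-fold (adjusted p = 2.5e-06), and by 2.89 ± 0.17 in 3B3l, or 7.42-fold (adjusted p = 1.5e-07). Within slide 1 the TKO differences were 2.47 in serum and 1.85 in 2i. For 3B3l, the serum difference was 2.42 within slide 3 and the 2i difference 3.09 with the slide as a block. In the 2i groups the fibroblast sums were 2.9 to 4.7 and the primitive endoderm sums 0.7 to 1.6, and the part of these markers in the *Gbx2* differences was not tested. The steps from 3B3l-serum to TKO-2i and from TKO-2i to J1-serum passed between neighbouring groups.

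**Figure D4:**
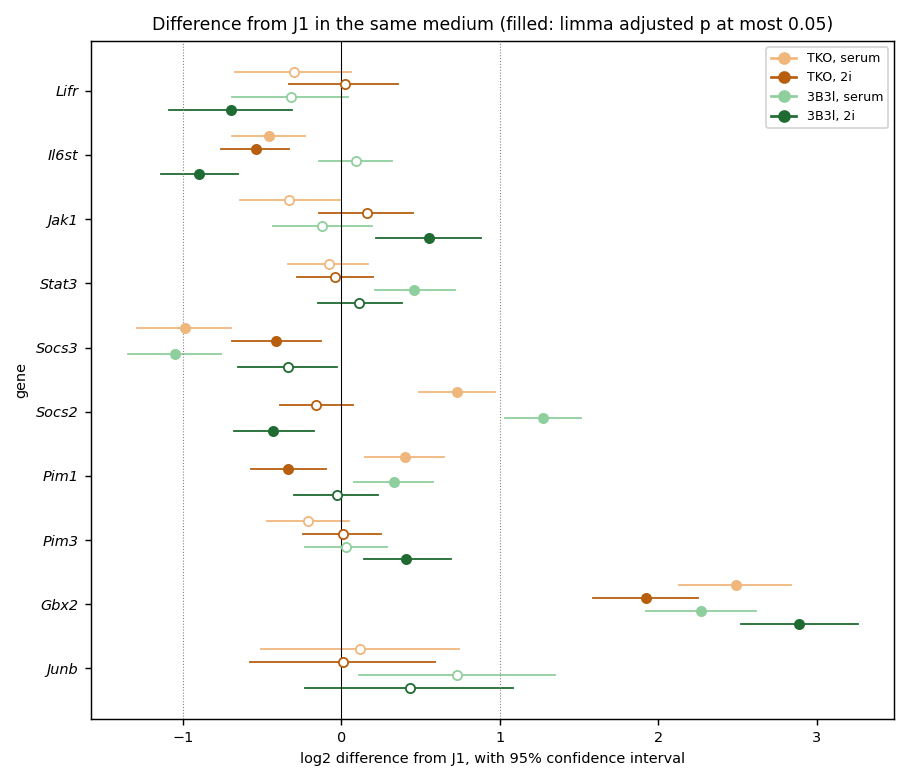
Log2 difference from J1 in the same medium (horizontal axis) for each of the 10 genes (vertical axis) in TKO and 3B3l cells, in serum and in 2i; lines are 95% confidence intervals, filled points had an adjusted p of 0.05 or less, with dotted lines at 2-fold. *Gbx2* lay 1.92 to 2.89 above J1 in all 4 comparisons, and *Socs3* in serum lay about 1 below J1 in both lines.

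To compare the lines directly, counts over the 10 genes were set beside those over all tested genes. TKO-serum differed from J1-serum in 5 of 10 genes (45.7% of all tested genes), with *Gbx2*, *Socs2* and *Pim1* higher and *Il6st* and *Socs3* lower. 3B3l-serum also differed from J1-serum in 5 of 10 (52.5% of all tested genes), with *Gbx2*, *Socs2*, *Pim1* and *Stat3* higher and *Socs3* lower. In 2i, TKO differed from J1 in 4 of 10 genes (26.3% of all tested genes), with *Gbx2* higher and *Il6st*, *Socs3* and *Pim1* lower. 3B3l-2i differed from J1-2i in 6 of 10 (43.6% of all tested genes), with *Gbx2*, *Jak1* and *Pim3* higher and *Il6st*, *Lifr* and *Socs2* lower. *Gbx2* passed with at least 2-fold in each of these comparisons, as 1 of 10 genes in TKO-serum, TKO-2i and 3B3l-2i (16.5%, 7.34% and 14.3% of all tested genes), and with *Socs2* and *Socs3* as 3 of 10 in 3B3l-serum (19.2%). These counts rested partly on single arrays, with 3 genes passing for 3B3l-serum without its replicate 1, 2 for 3B3l-2i without its replicate 1, and 2 for TKO-2i without TKO-2i replicate 1 or 2 or J1-2i replicate 1 or 3. The comparisons of both lines share the J1 arrays. The J1-serum arrays also carried the highest fibroblast and primitive endoderm sums, and the part of these in the serum differences was not tested. J1-serum alone was grown on feeders, so line and feeders cannot be told apart in the serum differences.

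The responses themselves differed from that of J1 for 3 of 10 genes in TKO (*Socs3*, *Socs2* and *Pim1*; 30.3% of all tested genes) and for 4 of 10 in 3B3l (*Il6st*, *Jak1*, *Socs3* and *Socs2*; 31.8% of all tested genes), the latter 2 of 10 without 3B3l-serum replicate 1. With at least 2-fold, *Socs2* in 3B3l was the only such difference (17.2% of all tested genes), and in TKO 0 of 10 genes differed so (15.2% of all tested genes). The fibroblast and primitive endoderm markers moved with these differences, with median differences of response of 2.48 and 3.66 in TKO and 1.62 and 3.83 in 3B3l, and their part was not tested.

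Beyond the 10 genes, 49 other genes of the pathway were listed by role, of which 44 were tested. In J1, 14 rose and 11 fell in 2i, in TKO 12 rose and 9 fell, and in 3B3l 10 rose and 9 fell, beside 55.0%, 38.7% and 31.2% of all tested genes that passed in either direction in the same order. The J1 share was near that of all tested genes. Their median log2 response was 0.10 in J1, 0.05 in TKO and -0.01 in 3B3l, close to the 0.05, 0.07 and 0.00 of all tested genes. The cytokines *Lif*, *Il6* and *Clcf1*, the oncostatin M receptor *Osmr* and *Zfp36* did not pass the filter on signal.

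Of the ligands and receptors, *Il6ra*, the interleukin-6 receptor that also pairs with gp130, rose from -1.83 to 1.18 in J1, a change of 3.01 ± 0.11 (SE, adjusted p = 5.6e-10). It rose by 3.08 in TKO and 1.84 in 3B3l. The other receptor genes tested are named after their values were seen. *Il11ra1*, an interleukin-11 receptor, fell by 1.52 in J1 (adjusted p = 0.0025), and its changes of -0.33 in TKO and 0.39 in 3B3l did not pass. The J1 groups overlapped for it, at 0.26 to 0.99 in serum and -1.22 to 0.30 in 2i. *Cntfr*, a receptor of ciliary neurotrophic factor, was well above background on no J1 or TKO array, so that its passing change in J1, one of the 11 falls, lies between values at background. In 3B3l, where it also passed as a fall, it read -1.15 and -1.07 in serum, and -1.53 and -4.07 in 2i, of which the lower was not well above background, so no size is given. Of 4 tested ligands 1 rose and 3 did not pass in J1, and 1 rose and 1 fell in TKO and in 3B3l. Over all tested genes, 55.0%, 38.7% and 31.2% passed in either direction in J1, TKO and 3B3l.

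Of the 8 tested Jak and Stat genes, 2 rose and 1 fell in J1, 3 rose and 1 fell in TKO, and 2 rose in 3B3l, against the 55.0%, 38.7% and 31.2% of all tested genes in either direction. *Stat5a*, which transmits signals of other cytokines, had log2 changes of 0.96 in J1, 1.53 in TKO and 1.86 in 3B3l, all of which passed. The response in 3B3l was 0.91 above that in J1 (adjusted p = 0.022), and the difference of 0.57 between TKO and J1 did not pass (adjusted p = 0.12). *Stat5a* was well above background on 1 of 2 arrays of TKO-serum and of 3B3l-serum, so these changes start from values near background. The related *Stat5b* fell by 2.05 in J1, and its changes of -0.13 in TKO and 0.54 in 3B3l did not pass. Of the 16 inhibitors and adaptors, 5 rose and 4 fell in J1, 3 rose and 2 fell in TKO, and 2 rose and 2 fell in 3B3l, near the 55.0%, 38.7% and 31.2% of all tested genes. *Cish*, a Socs family inhibitor known as a target of Stat5, fell by 2.00 in J1 and 1.81 in TKO, where 2 of 3 J1-2i arrays and 1 of 3 TKO-2i arrays had it well above background, so that the size of the TKO fall rests mostly on values at background. Neither 3B3l-2i array had it well above background, and its level there was at least 3.03-fold below 3B3l-serum (-2.50 and -0.72, adjusted p = 4.2e-04), where the bound is the bright mean over the higher of the dim value and the lowest signal well above background on each array.

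The list of Stat3 targets held genes that moved in opposite directions. Of 13 tested, 5 rose and 4 fell in J1, 4 rose and 5 fell in TKO, and 4 rose and 5 fell in 3B3l, beside 55.0%, 38.7% and 31.2% of all tested genes in either direction. *Tfcp2l1*, a transcription factor of naive pluripotency that LIF and Stat3 activate, rose from 1.69 to 4.26 in J1 (2.56 ± 0.13, SE, adjusted p = 8.4e-09), by 2.78 in TKO and by 2.24 in 3B3l. *Myc*, the growth-promoting transcription factor, had log2 changes of -1.74 in J1, -2.61 in TKO and -1.76 in 3B3l. *Pim2*, the third Pim kinase, had -1.03, -2.07 and -2.72 in the same order. *Cebpd*, an acute-phase transcription factor, had -1.24, -1.34 and -1.84. In each of the 3 lines these genes passed with at least 2-fold, as did *Il6ra* and *Cish*.

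**Figure D5:**
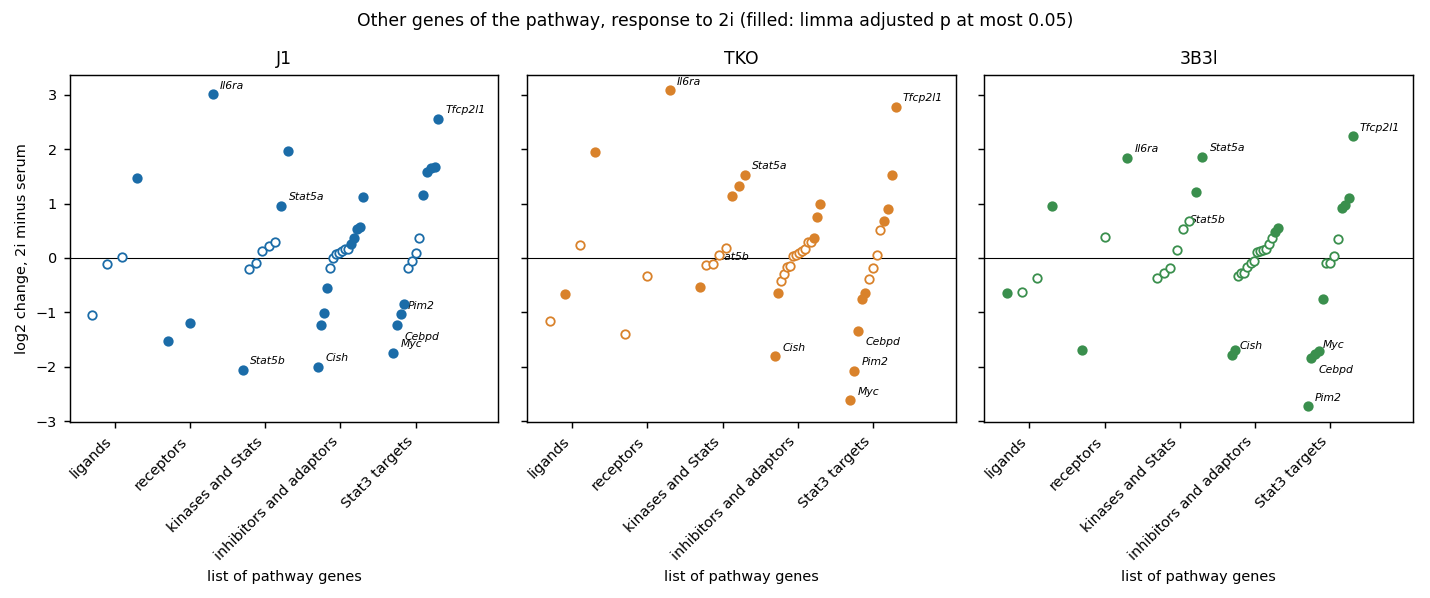
Log2 change from serum to 2i (vertical axis) of the other tested pathway genes, by list (horizontal axis), in J1, TKO and 3B3l cells; each point is a gene, filled where its adjusted p was 0.05 or less, and genes picked for the size of their change are labelled. In all 3 lines *Il6ra* and *Tfcp2l1* were among the highest, and *Myc*, *Pim2*, *Cebpd* and *Cish* fell.

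To describe which other genes followed each of the 10 most closely, Pearson correlations of the scaled log2 values over the 16 arrays were ranked among 13628 genes. The arrays fall into 6 groups, so r follows mainly the group levels and is given with no test. *Gbx2* was most like *Nanos3* (r = 0.975), *Mtmr9* (0.970) and *Ints9* (0.962). *Socs3* was most like *Ctsh* (0.973) and *Fam114a1* (0.967). *Junb* was most like *Phc1* (0.972), *Entpd6* (0.961) and *Sox4* (0.961). The closest genes were *Tpm2* for *Pim3* (0.966), *Commd5* for *Socs2* (0.964), *Slc12a7* for *Il6st* (0.961), *Lrmp* for *Stat3* (0.954), *Stam2* for *Lifr* (0.931) and *Retreg2* for *Jak1* (0.931). *Pim1* had no gene above the 0.850 of *Ttn*.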

How the data were processed

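Total RNA of 16 samples was labelled with Cy3 and hybridised to 1-colour Agilent mouse arrays (62976 spots, 59305 of them not controls). The deposited files hold scanner intensity values that the authors extracted with Feature Extraction 11.5.1.1, background-corrected by that software, and a table of log2 values that the authors normalized between arrays. Array annotation refers to mm9. From the processed intensities, spots called non-uniform or population outliers were removed, values were log2 transformed, the 75th percentile of each array was subtracted, and replicate spots were averaged. The flag for a signal well above background had to be set on at least 50% of a probe's spots.

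Group means were fitted with limma 3.58.1 (R 4.3.3) over all 6 groups, with empirical Bayes variances, contrasts between groups and between responses, two-sided tests and Benjamini-Hochberg adjustment over 27126 probes, at the threshold of 0.05, the rule stated in the study's methods. The fit was tested on simulated data. Tables were handled with Python 3.11.15 and pandas 2.3.3.

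The 10 genes, the pathway lists and the marker lists were chosen with earlier results of these data known. Named genes were all probes of the 10 genes, and of the other lists those passing with at least 2-fold in the same direction in all 3 responses or among the 3 largest changes of a response. Some genes of these lists are not reported here and were left out of the counts. For each of the 10, the 3 most correlated genes were ranked. Promoter sequences were RefSeq's (GRCm38.p6), and the *Stat3* probe sequence was the study's. Alternatives were another background correction, scaling, signal filter, probe rule, fold limit, slide or replicate block, within-slide fits, the groups compared alone, the authors' log2 table, and each array left out, where a lone array was assumed to vary like the others.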

Additional observations from a re-analysis of the deposited data

Results flagged for a closer look

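The response to 2i differed from that of J1 by the interaction test in limma for 7 results among the 10 genes, and each is given as the log2 response of the line minus that of J1. In TKO these were *Socs3* at 0.58, *Socs2* at -0.89 and *Pim1* at -0.74. In 3B3l they were *Il6st* at -0.99, *Jak1* at 0.67, *Socs3* at 0.71 and *Socs2* at -1.70. Both sets share the J1 arrays. *Socs2* rose in J1 by 1.20 and fell in 3B3l by 0.50 on the log2 scale, with the J1-serum arrays lowest of all groups. No array of J1-serum, the one group of 4, lay apart from the others by Dixon's test at the 95% level, taken on unrounded values of the brightest probe, for any of the 10 genes. *Lifr* and *Junb*, with replicate 1 farthest from the others, came just under the limit, with gaps of 0.828 and 0.820 of the group's range.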

How the results depend on the processing

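Of 1770 values of single genes under alternatives, 1613 kept their direction and side of the threshold, 127 lost the call, 23 gained one and 7 turned. All 7 were *Lifr*. With any probe of the gene its responses were -1.35 in J1 and -1.28 in TKO, TKO-2i against J1-2i was -0.74, and the differences of response were -0.94 for TKO and 1.58 for 3B3l. With the median over its probes TKO-2i against J1-2i was -0.74 and the TKO response -0.45, the latter void as a change because the median fell on different probes in the 2 media.

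With a 2-fold limit the number of passing genes was 3 for the J1, 1 for the TKO and 1 for the 3B3l response, 1 and 1 for TKO against J1 in serum and 2i, 3 and 1 for 3B3l against J1 in serum and 2i, and 0 and 1 for the differences of response of TKO and 3B3l. The 3B3l response counted 1 gene with array median scaling, 1 within slide 3 and 1 with only the groups compared. TKO-2i against J1-2i counted 2 with no filter on dim probes, 3B3l-serum against J1-serum 3 within slide 3, and 3B3l-2i against J1-2i 3 with the slide as a block. The cause was not tested. Leaving out 1 array at a time gave 7 to 7 genes for the J1, 6 to 7 for the TKO and 2 to 3 for the 3B3l response, 4 to 5 and 2 to 3 for TKO against J1 in serum and 2i, 3 to 6 and 2 to 6 for 3B3l against J1, and 2 to 3 and 2 to 5 for the differences of response of TKO and 3B3l. The count for 3B3l-serum against J1-serum was 3 without 3B3l-serum replicate 1. That for 3B3l-2i against J1-2i was 2 without 3B3l-2i replicate 1. The difference of response of 3B3l counted 2 without 3B3l-serum replicate 1. TKO-2i against J1-2i counted 2 without J1-2i replicate 1, J1-2i replicate 3, TKO-2i replicate 1 or TKO-2i replicate 2.

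The replicate numbers did not pair the samples: deviations from the group means correlated between -0.272 and 0.293 over 33 same-numbered pairs, of which 6 were above 0.1. With the replicate block 7 genes passed for the J1, 7 for the TKO and 3 for the 3B3l response, 5 and 3 for TKO and 4 and 5 for 3B3l against J1 in serum and 2i, and 2 and 4 for the differences of response. Array median scaling moved the median change of all genes in the J1 response from 0.05 to 0.21, and quantile normalization moved that of 3B3l-serum against J1-serum from 0.13 to 0.02. In the authors' table most columns were closest to another replicate of the same group, which leaves the groups as labelled. Groups of 2 arrays and dim probes limit what small changes could be seen.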
